A study of Mus musculus with 17 samples.

Results

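The tumour response of TIM4+CD206hi Kupffer cells (KCs), sorted from mouse liver, was measured by RNA sequencing in 6 of the 17 samples of the series. Members were taken by their labels, 3 samples of Tim4+CD206hi cells from livers with tumour and 3 from livers without. Tumour-bearing livers were taken 2 weeks after KPC cells were given by intraportal injection, and tumour-free mice were untreated. KPC cells are a mouse pancreatic adenocarcinoma line from a genetically engineered mouse model with mutant Trp53, and injection into the portal vein seeds the liver directly, so the model holds no primary tumour in the pancreas. The other samples are 6 of TIM4+CD206+ KCs in the same conditions, used here only side by side, and 5 of KCs from Id3f/f and Clec4fCre Id3f/f mice, not used here. Cells were gated as live CD45+ TIM4+ CD206high macrophages that lack CD3, NKP46 and Ly6G, a gate meant to remove T and NK cells and neutrophils. Age, sex and strain of these mice are not in the labels, and nothing in them says whether cells of several mice were pooled, so p-values measure the spread between these samples.

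KCs are the resident macrophages of the liver, seeded before birth, and lie in the sinusoids, where they take up particles, dying cells and aged red cells from portal blood. TIM4, encoded by Timd4, binds phosphatidylserine on dying cells, and CD206, encoded by Mrc1, is the mannose receptor, which endothelial cells of the sinusoid also make. Macrophages near tumours are known for changes in lipid handling, matrix turnover, chemokine output and interferon responses.

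The values are on a regularized log2 scale, which draws genes with few reads towards their mean, so differences of such genes are understated. They carry no read totals, and the depth of each library is not known from them. Regularized values are not counts, and a gene high in a single group can pass a cut-off set on them. A gene was tested when its value was at least log2 of 10 in 3 samples, and 14561 of 25124 genes were. Of these, 1053 (7.23%) had an adjusted p under 0.05 with limma, 758 (5.21%) higher and 295 (2.03%) lower in tumour-bearing livers, and 30.7% had groups that did not overlap. Of the calls 72.0% were higher, and 56.2% with quantile normalization, and the median log2 fold change over tested genes was 0.03, or −0.13 with median centring and −0.11 with quantile normalization. By the mean over all 6 samples, 654 of the 758 rises lay under 9 (86.3%) and 168 of the 295 falls (56.9%), against 6727 of the 14561 tested genes (46.2%).

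The tumour-bearing libraries were alike, with correlations of 0.993 to 0.994 across tested genes, and the tumour-free libraries less so, with 0.937 to 0.972. Tumour-free replicate 3 stood apart with low values of GC-rich genes (GC content over 58%, median deviation −0.77 against 0.17 to 0.21 in tumour-bearing libraries), and tumour-free replicate 2 lay nearest to the tumour-bearing libraries, with correlations of 0.958 to 0.962. Among abundant macrophage genes, Spi1, which encodes the lineage factor PU.1, read 12.64, 14.27 and 10.74 without tumour and 14.12, 13.95 and 14.01 with it, and Apoe read 17.78, 19.60 and 15.59 without tumour and 19.43, 19.18 and 18.92 with it. In both, tumour-free replicate 2 lay above the tumour-bearing samples and replicate 3 far below, and neither passed the test (adjusted p = 0.32 and 0.367). Omitting tumour-free replicate 2 raised the count of calls to 3634 of 14561 tested genes, 2559 higher and 1075 lower. List counts given below for that omission are to be read against these. The count was 649 when tumour-free replicate 1 was omitted, 1276 for replicate 3, 579, 582 and 637 for tumour-bearing replicates 1, 2 and 3, and 1091 after trends with GC content and length were removed. No called gene changed sign in any of these, and omission of 1 sample cannot reverse a gene whose groups do not overlap. Of 144 called genes followed through 13 alternatives (the 6 omissions and 7 other filters, normalizations or models), 72 passed in every one that tested them. Those are described below as held throughout, and beside many of the others the omissions that ended the call are named.

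**Figure D1:**
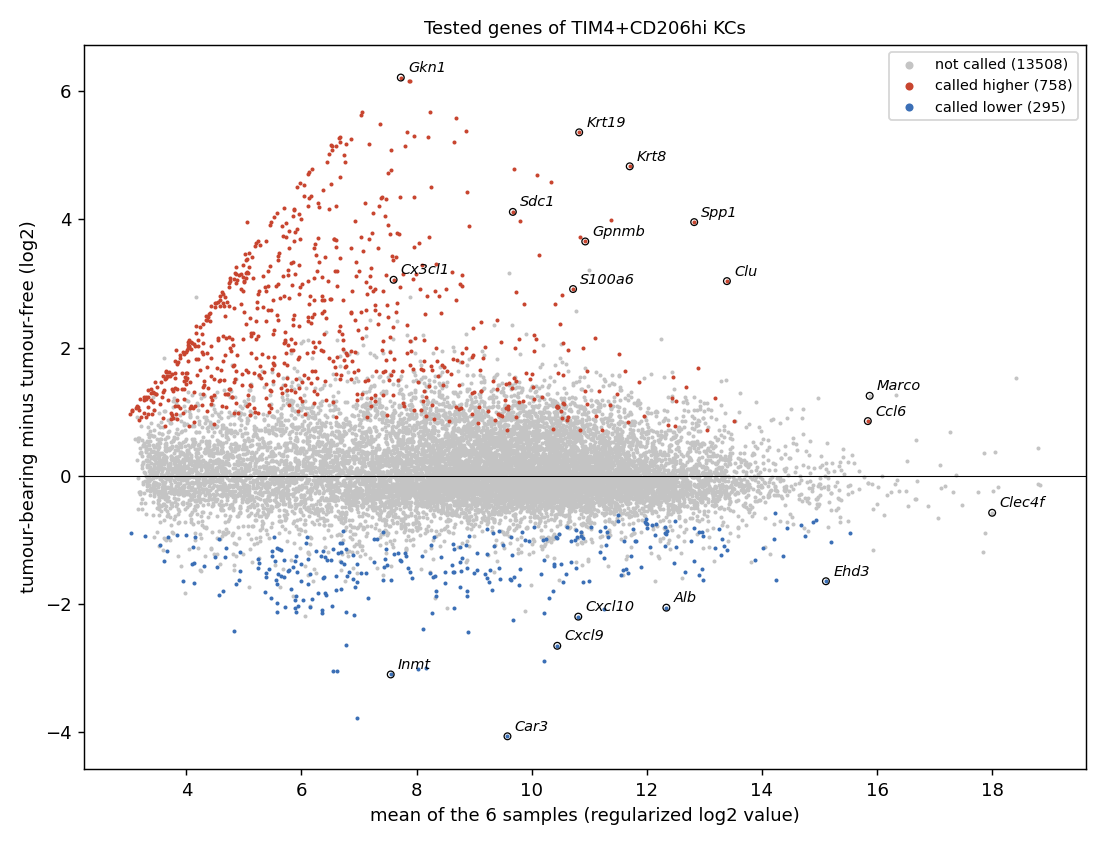
Each point is a tested gene of TIM4+CD206hi KCs, with the mean regularized log2 value of the 6 samples on the horizontal axis and the tumour-bearing minus tumour-free difference in log2 on the vertical axis. Red points are the 758 genes called higher, of which 654 lie under 9, blue points the 295 called lower, and grey points those not called.

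The sort and the identity of the cells were checked on the genes that define them. Clec4f, a lectin made by KCs and few other cells, read 18.21, 18.20 and 18.45 without tumour and 17.78, 17.60 and 17.76 with it. Timd4 read 14.71, 14.58 and 15.25 without tumour and 14.27, 14.03 and 14.33 with it, and Adgre1, an adhesion receptor of mature macrophages and part of the gate, read 15.59, 15.61 and 16.35 without tumour and 15.19, 15.07 and 15.18 with it. In each of these the tumour-bearing samples all lay below the tumour-free ones, with differences of −0.58, −0.64 and −0.71, and none passed the test (adjusted p = 0.119, 0.149 and 0.144). Ptprc, which encodes CD45, was level, with a difference of 0.01. Of 19 KC identity genes tested, 0 were called in either direction, with a median log2 fold change of −0.29, and of 20 transcription factors of the lineage 0 were called, with a median of −0.16. Id3 differed by −0.34 (adjusted p = 0.548), and Maf, the transcription factor with the lowest p of that list, by −0.84 (adjusted p = 0.066).

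Mrc1, the gene of the gate, read 15.82, 15.03 and 16.19 without tumour and 15.11, 14.96 and 15.04 with it. Tumour-free replicate 2 lay within the range of the tumour-bearing samples and the other two above it, and the difference of −0.65 did not pass the test (adjusted p = 0.264). Of 13 surface genes that go with CD206hi KCs, all differed downwards and 1 fell, Tek, the angiopoietin receptor, with −1.02 (adjusted p = 0.0469), a call that ended in 9 of 13 alternatives, among them every omission but that of tumour-free replicate 2. On omission of tumour-free replicate 2, 10 of the 13 were called lower. Several of these genes are defining markers of sinusoidal endothelium, and the levels of endothelial genes in these cells were high in both conditions: Kdr, the VEGF receptor, averaged 14.79 without and 14.08 with tumour, and Clec4g, a lectin of sinusoidal endothelium, 15.98 and 15.09. In the TIM4+CD206+ table, which was normalized on its own, the same means were 7.63 and 7.02 for Kdr and 11.11 and 10.25 for Clec4g, while Mrc1 averaged 12.80 and 12.54 there and 15.68 and 15.03 here. KCs with endothelial transcripts and endothelial cells in the sort were not distinguished, and in bulk samples fewer cells of a type and less RNA per cell cannot be told apart.

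Genes of gastric and pancreatic duct-like epithelium rose most. In the list of gastric-type secretory genes 24 of 29 tested members rose and 0 fell, with a median log2 fold change of 4.58, and in that of epithelial identity genes 28 of 37 rose and 0 fell, with a median of 3.12. Gkn1 (chr6:87345653-87350915, GRCm38), which encodes the gastric mucosal protein gastrokine 1, read 4.60, 4.61 and 4.65 without tumour and 11.15, 10.51 and 10.83 with it. Krt20, a keratin of gut epithelium, read 4.70, 4.93 and 4.74 without tumour and 11.14, 10.65 and 11.08 with it, and Tff1, a secreted trefoil peptide of the stomach, 4.70, 4.86 and 4.83 without tumour and 11.39, 10.30 and 11.19 with it. The tumour-free samples lay within 0.23 of each other for each of these, and the tumour-bearing samples lay far above without overlap. These tumour-free values are low, and the scale draws samples together for genes with few reads. Their closeness, and SEs that rest on it, may therefore understate the spread between samples. The log2 fold changes were 6.21 (SE 0.23, adjusted p = 3.65e-05), 6.16 (SE 0.22, adjusted p = 3.65e-05) and 6.16 (SE 0.31, adjusted p = 6.65e-05), and the 10 largest rises were completed by Sptssb, Mucl3, Gkn2, Prom1, Lypd8, Krt7 and Cdh17, with 5.37 to 5.67.

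Structural genes of epithelium moved with them. Krt19 (chr11:100140810-100145926), a keratin of ducts, read 7.25, 8.62 and 8.58 without tumour and 13.50, 13.57 and 13.43 with it, and Krt8, a keratin of simple epithelium, 9.77, 9.63 and 8.47 without tumour and 14.11, 14.16 and 14.07 with it. The tumour-bearing samples agreed closely in both, and the lowest tumour-free sample was replicate 1 for Krt19 and replicate 3 for Krt8. Cdh1, which encodes E-cadherin, rose by 3.97, Epcam, an epithelial adhesion molecule, by 5.08, Muc1, a membrane mucin, by 4.79, and Sdc1, a heparan sulphate proteoglycan of epithelium and plasma cells, by 4.12 (adjusted p = 9.29e-05, 0.000121, 0.000108 and 0.000133). Among genes of secretion and invasion 14 of 27 rose and 0 fell, among them Pdx1, a transcription factor of the pancreas, by 3.29, Areg, an EGF receptor ligand, by 3.15, and S100a14 by 3.80. Mcpt2, a protease of mucosal mast cells, rose by 4.53, and so did its relative Mcpt1, by 3.96. Each gene given by value in these paragraphs held throughout, and without any 1 library at least 21 gastric-type and 23 epithelial genes still rose. Averaged over the 37 epithelial genes the samples lay at 6.23 to 6.70 without and 9.31 to 9.48 with tumour, and over the 29 gastric-type genes at 5.31 to 5.50 and 9.19 to 9.28.

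**Figure D2:**
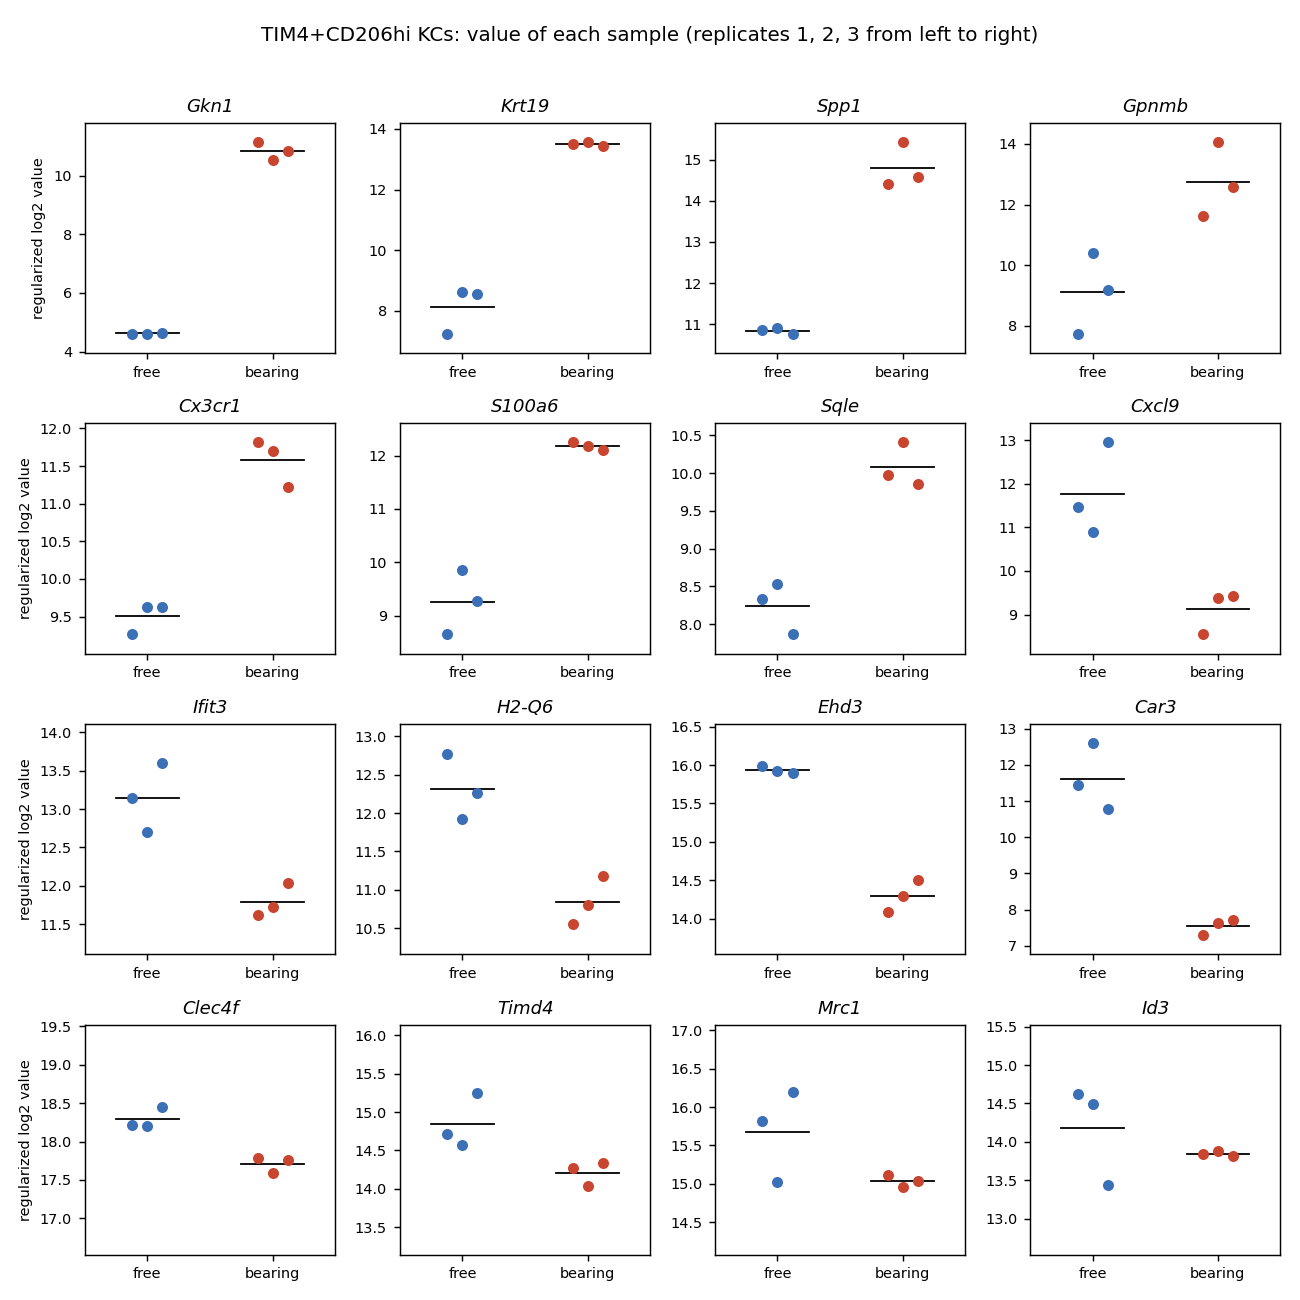
Each panel plots 1 gene in the 6 samples, with tumour-free samples in blue, tumour-bearing samples in red, replicates 1 to 3 from left to right, the mean as a line and the regularized log2 value on the vertical axis. The groups are separate in every panel but those of Mrc1 and Id3, and the tumour-free samples are spread more widely than the tumour-bearing ones for genes such as Cxcl9, S100a6 and Id3.

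Among genes that macrophages are known to make, those of lipid-associated and scar-associated macrophages rose, 7 of 21 tested and 0 falling, with a median log2 fold change of 0.70. Spp1 (chr5:104435111-104441053), which encodes the secreted matrix protein osteopontin and is also made by duct epithelium, read 10.85, 10.92 and 10.77 without tumour and 14.40, 15.43 and 14.57 with it. The tumour-free samples lay within 0.15 of each other and replicate 2 was the highest of the tumour-bearing ones, and the difference was 3.96 (SE 0.27, adjusted p = 0.00019). Gpnmb, a lysosomal membrane glycoprotein, read 7.74, 10.39 and 9.18 without tumour and 11.62, 14.07 and 12.58 with it, widely spread in both groups but without overlap, with a difference of 3.65 (SE 0.79, adjusted p = 0.0362). Cd63, a tetraspanin of late endosomes, rose by 1.63 (adjusted p = 0.00408), Trem2, a lipid-sensing receptor, by 1.63 (adjusted p = 0.0438) and Anxa2 by 0.85 (adjusted p = 0.0154). Chil3, a chitinase-like lectin, read 7.93, 9.37 and 9.90 without tumour and 11.99, 11.70 and 11.54 with it, and Arg1, which splits arginine in alternatively activated macrophages and in hepatocytes, 11.58, 12.35 and 12.22 without tumour and 13.37, 14.36 and 13.49 with it. Both rose, by 2.68 and 1.69 (adjusted p = 0.0158 and 0.0218), without overlap.

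Spp1 and Cd63 held throughout. The calls of Gpnmb, Trem2, Arg1, Chil3 and Anxa2 ended in 6, 7, 3, 3 and 6 of the 13 alternatives. Each ended on omission of tumour-bearing replicate 2 and of replicate 3, and with 1 library omitted their adjusted p reached 0.118, 0.182, 0.0855, 0.0757 and 0.112. The list then held 2 calls, and 3 on omission of tumour-free replicate 1. Among repair and matrix genes of macrophages 6 of 23 rose. They were Spp1, Chil3, Arg1, Mmp8, a collagenase stored by neutrophils, and Areg and Hbegf, growth factors that epithelium also makes, and the count was 2 on omission of tumour-bearing replicate 2 or 3. Atp6v0d2, a subunit of the proton pump of macrophage lysosomes, read 6.30, 7.38 and 8.07 without tumour and 9.37, 11.19 and 10.17 with it, and rose by 3.00 (adjusted p = 0.0223, up to 0.0794 on omission of tumour-free replicate 1 or tumour-bearing replicate 2 or 3). It and Cd63 were the 2 called among 34 lysosomal genes. Genes named after their values were seen were Clu, an extracellular chaperone, with 3.04 (adjusted p = 0.000389), and Gsto1 and Txnrd1, enzymes of thiol metabolism, with 1.39 and 1.53. Clu and Gsto1 held throughout, and the call of Txnrd1 ended on omission of tumour-bearing replicate 1 or 2 (adjusted p up to 0.0534). Marco, a scavenger receptor of KCs, read 15.31, 14.27 and 16.16 without tumour and 16.65, 16.56 and 16.27 with it, with tumour-free replicate 3 just below the tumour-bearing samples, and did not pass (difference 1.25, adjusted p = 0.163).

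Monocyte genes divided. Of 22 tested, 5 rose and 1 fell, with a median of 0.75. Cx3cr1, the fractalkine receptor, read 9.26, 9.63 and 9.63 without tumour and 11.81, 11.70 and 11.22 with it, and Ccr2, the receptor that draws monocytes from the blood, 9.83, 10.86 and 11.01 without tumour and 12.81, 12.51 and 12.08 with it. S100a6, a calcium-binding protein, read 8.65, 9.86 and 9.28 without tumour and 12.24, 12.18 and 12.10 with it. In all 3 genes each tumour-bearing sample lay above each tumour-free one, and the log2 fold changes were 2.07, 1.90 and 2.91 (adjusted p = 0.00147, 0.0182 and 0.00129). Vcan, a matrix proteoglycan, rose by 2.59, and S100a4 by 1.41. Ly6c2, the defining surface gene of classical monocytes, read 9.36, 9.38 and 9.95 without tumour and 9.85, 9.65 and 9.52 with it, and the groups overlapped (difference 0.11, adjusted p = 0.796), and Ifitm3, an interferon-induced restriction factor, fell by 0.68 (adjusted p = 0.0496). Cx3cr1, S100a6 and Vcan held throughout, the call of Ccr2 ended on omission of tumour-bearing replicate 1 or 2 (adjusted p up to 0.0878), and that of S100a4 on omission of any tumour-bearing replicate (up to 0.0885). The list held 0 falls, Ifitm3 included, in 11 of 13 alternatives, all but the omissions of tumour-free replicates 2 and 3.

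Neutrophil genes rose in cells gated without Ly6G, 7 of 19 and 0 falling, with a median of 1.73. S100a8 read 9.32, 9.51 and 10.86 without tumour and 12.17, 12.08 and 11.44 with it, and its partner S100a9 9.54, 9.37 and 11.17 without tumour and 12.47, 12.33 and 11.71 with it, and tumour-free replicate 3 was the highest of its group in both, close to the tumour-bearing samples. They rose by 1.99 and 2.14 (adjusted p = 0.0337 and 0.0425). Il1r2, a decoy receptor of IL-1, rose by 2.88 and Cxcr2, the receptor of neutrophil chemokines, by 2.40, both held throughout, and Ly6g itself by 1.73 from near the lowest values (3.51, 3.69 and 4.69 without tumour and 5.94, 5.68 and 5.47 with it; adjusted p = 0.0224). The mean of the 19 genes lay at 7.55 to 8.57 without and 9.10 to 9.80 with tumour. The calls of S100a8, S100a9 and Ly6g ended on omission of tumour-free replicate 1 or of any tumour-bearing replicate (adjusted p up to 0.144, 0.166 and 0.101). On omission of tumour-bearing replicate 1 or 2 the list held 2 calls, 3 for replicate 3, 4 for tumour-free replicate 1 and 12 for tumour-free replicate 3. The part of epithelial, neutrophil and monocyte RNA in the macrophage genes above was not tested.

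**Figure D3:**
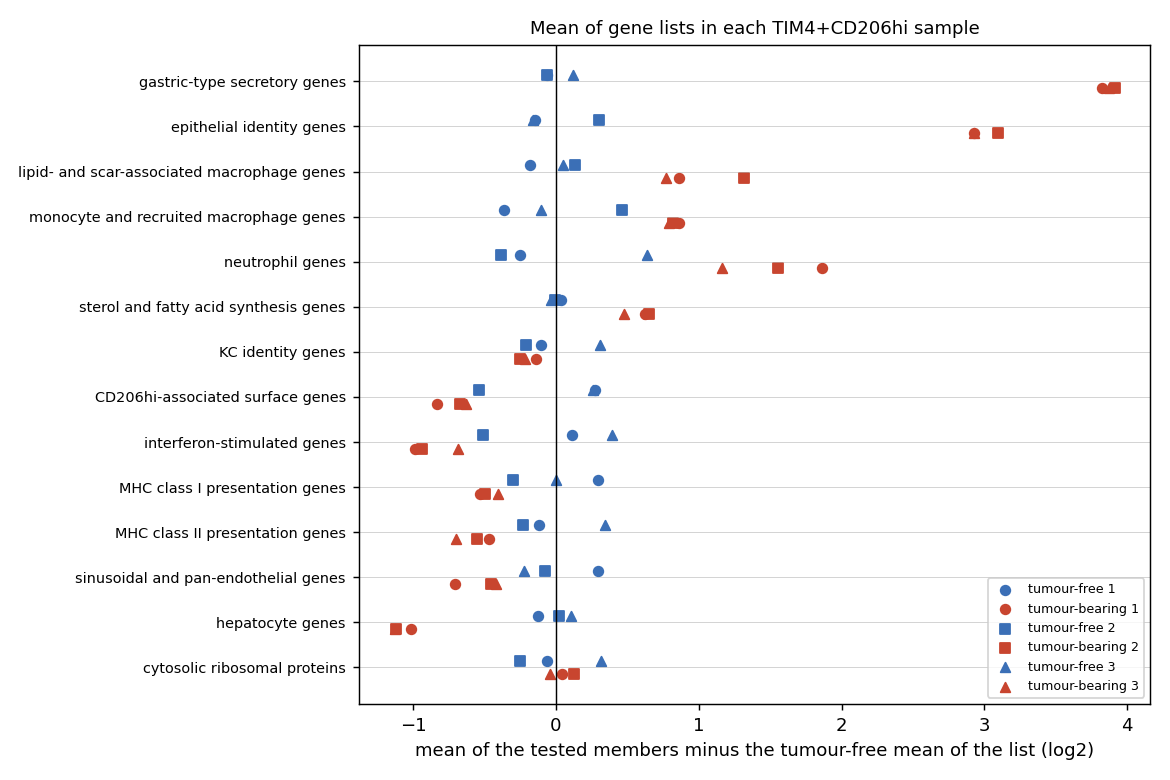
The horizontal axis gives, for 14 gene lists, the mean regularized log2 value of the tested members in each sample minus the tumour-free mean of that list, with tumour-free samples in blue, tumour-bearing samples in red and symbols for the replicate number. The epithelial lists lie near 3 and 4 in all tumour-bearing samples, and tumour-free replicate 2 lies nearest to the tumour-bearing samples for interferon-stimulated, MHC and CD206hi-associated genes.

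Among receptors by which macrophages sense and take up targets, some were called higher, as were 5.21% of all tested genes. Of 17 activating lectins and Fc or ITAM receptors 2 rose, Trem1 and Clec5a, both coupled to the adaptor DAP12, by 2.10 and 1.86 (adjusted p = 0.00289 and 0.00362, both held throughout). Clec7a, which encodes the glucan receptor dectin-1, read 13.55, 13.69 and 14.51 without tumour and 13.97, 14.03 and 13.87 with it, Clec4n, which encodes dectin-2, 13.08, 13.11 and 14.16 without tumour and 13.88, 13.81 and 13.51 with it, and Clec4d 6.62, 8.43 and 7.18 without tumour and 8.34, 8.42 and 8.12 with it. In all 3 the groups overlapped, and the differences were 0.04 (95% interval −0.58 to 0.65), 0.28 (−0.44 to 1.01) and 0.89 (−0.15 to 1.93). Of 19 inhibitory receptors 2 rose, the sialic acid receptors Siglecf, by 1.78, and Cd33, by 0.87 (adjusted p = 0.0121 and 0.0344), calls that ended in 3 and 7 alternatives, in both on omission of tumour-free replicate 1 or of tumour-bearing replicate 1 or 2 (up to 0.0665 and 0.2). Sirpa, the receptor of CD47, differed by 0.40 and Siglecg by −0.28 (adjusted p = 0.361 and 0.576). The genes of their ligands differed by 0.53 for Cd47 (adjusted p = 0.467) and rose by 1.97 for Cd24a (adjusted p = 0.00327), which epithelium also makes. Of 20 genes of apoptotic cell uptake and 15 Toll-like receptor genes 0 were called, with medians of −0.14 and −0.18. On omission of tumour-free replicate 2, 3 uptake genes were called higher and 2 lower, 4 Toll-like receptors lower, and 6 activating receptors higher and 1 lower. Over all 14561 tested genes that omission called 2559 higher and 1075 lower. Counted without regard to direction, uptake and Toll-like receptor genes were called about as often as tested genes at large. By direction, the Toll-like receptor calls were all lower, with 0 higher, while most calls over all tested genes were higher.

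Among lectins of the Cd209 family and related ones 4 of 17 fell and 0 rose. Cd209f read 11.35, 11.54 and 11.16 without tumour and 10.12, 9.35 and 10.02 with it and Cd209g 9.51, 9.41 and 8.98 without tumour and 7.99, 7.57 and 8.19 with it, and the tumour-bearing samples lay below all tumour-free ones, with differences of −1.53 and −1.38 (adjusted p = 0.0103 and 0.0177). The others called were Clec4g and Clec14a, which endothelial cells make. Cd209a and Cd209b, whose groups overlapped, differed by −0.06 and −0.72 and did not pass (adjusted p = 0.937 and 0.224). The call of Cd209f ended on omission of tumour-free replicate 1 (adjusted p = 0.054), when 0 of the list were called, and that of Cd209g also on omission of tumour-bearing replicate 1 or 2 (up to 0.0895), when 1 was.

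Chemokine genes moved in both directions. Ccl6, a CC chemokine of myeloid cells, read 15.26, 15.58 and 15.40 without tumour and 16.36, 16.30 and 16.14 with it, and Ccl9, a chemokine of the same subfamily, 11.68, 12.17 and 11.63 without tumour and 12.88, 13.19 and 13.06 with it. They rose by 0.85 and 1.22 (adjusted p = 0.024 and 0.0103), while Ccl5, which attracts T and NK cells, read 9.74, 9.41 and 9.79 without tumour and 8.80, 8.74 and 8.90 with it and fell by 0.84 (adjusted p = 0.0417). In all 3 genes the groups were apart. The calls ended on omission of tumour-free replicate 1 or of tumour-bearing replicate 2 or 3, and those of Ccl6 and Ccl5 also for tumour-bearing replicate 1 and in the blocked fit (adjusted p up to 0.149, 0.0702 and 0.206). Ccl2, Ccl3, Ccl4 and Ccl7 differed by 0.42, 0.48, −0.24 and 0.58 (adjusted p = 0.465, 0.243, 0.58 and 0.329). Cx3cl1 (chr8:94772180-94782427), the ligand of CX3CR1 on epithelium and endothelium, read 6.04, 6.11 and 6.07 without tumour and 9.26, 9.04 and 9.09 with it and rose by 3.06 (SE 0.19, adjusted p = 0.000121, held throughout), and Cxcl5, which draws neutrophils, by 3.16. Cxcl9, Cxcl10 and Cxcl13, the last a B cell attractant, fell, and Cxcl13 read 11.47, 12.00 and 12.24 without tumour and 10.63, 10.16 and 11.08 with it (difference −1.28, adjusted p = 0.0464, a call kept on omission of tumour-free replicate 2 and ended by each other omission, up to 0.173). Among cytokines 1 of 24 rose and 1 fell: Osm, which encodes oncostatin M, by 2.30 (adjusted p = 0.0158), and Tnfsf10, the death ligand TRAIL, which fell by 1.66 (adjusted p = 0.0412). Both calls ended on omission of tumour-free replicate 1 or of any tumour-bearing replicate (up to 0.0796 and 0.166). Il15, Il18, Il12a and Il12b differed by −0.65, 0.18, −0.32 and −1.52 (adjusted p = 0.122, 0.78, 0.471 and 0.237).

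Receptors for chemoattractants were divided into 3 that rose, Ccr2, Cx3cr1 and Cxcr2, and 3 that fell. Of the latter, Ackr4, which scavenges CCL19 and CCL21, read 9.85, 9.90 and 9.66 without tumour and 7.63, 8.02 and 8.15 with it, with the groups apart by more than either spread, and fell by 1.87 (SE 0.21, adjusted p = 0.00202, held throughout). Ackr1, a chemokine-binding receptor of venules, fell by 1.44 (adjusted p = 0.0311), and Fpr1, the formyl peptide receptor, fell by 0.99 (adjusted p = 0.0194). Both calls ended on omission of tumour-free replicate 1 or of any tumour-bearing replicate (up to 0.134 and 0.117). Socs3, a feedback inhibitor of STAT3 signalling named after its values were seen, read 9.13, 10.25 and 7.96 without tumour and 12.01, 12.06 and 11.72 with it and rose by 2.82 (adjusted p = 0.0193), a call lost in the same 4 omissions (up to 0.0872).

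Interferon-stimulated genes were lower. Of 38 tested, 37 differed downwards, 8 fell and 0 rose, with a median log2 fold change of −0.81 against 0.03 over all tested genes. Cxcl9 (chr5:92321331-92328079) and its neighbour Cxcl10 (chr5:92346638-92348889), chemokines that draw activated T cells, were higher in every tumour-free sample. Cxcl9 read 11.48, 10.89 and 12.95 without tumour and 8.54, 9.38 and 9.43 with it, and Cxcl10 read 12.42, 10.70 and 12.61 without tumour and 9.36, 9.77 and 10.00 with it. In Cxcl9 tumour-free replicate 3 was the highest and in Cxcl10 tumour-free replicate 2 the lowest of its group, and neither gene overlapped between groups. The differences were −2.65 (SE 0.53, adjusted p = 0.0254) and −2.20 (SE 0.50, adjusted p = 0.0425). Ifit3 (chr19:34583119-34588982), an antiviral effector, read 13.14, 12.71 and 13.60 without tumour and 11.62, 11.72 and 12.04 with it and fell by 1.35 (SE 0.25, adjusted p = 0.0198). Ifit3b, its near-identical copy, with which reads may be shared, fell by 1.41. Rtp4, Usp18, which limits interferon receptor signalling, and Irf7, a transcription factor of interferon genes, had log2 fold changes of −0.95, −0.95 and −0.82, and Xaf1 was the remaining gene called.

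The count of 8 depended on the libraries. It was 31 on omission of tumour-free replicate 2, 7 for replicate 3, 0 for replicate 1, 0 for each of the tumour-bearing replicates, and 8 after trends with GC content and length were removed, when Cxcl10 and Irf7 were no longer called. The mean of the 38 genes was 12.08, 11.46 and 12.36 in the tumour-free samples and 10.98, 11.03 and 11.28 in the tumour-bearing ones, so that tumour-free replicate 2 was the lowest of its group and still above each tumour-bearing sample. With 1 library left out the adjusted p of Cxcl9, Cxcl10 and Ifit3 reached 0.108, 0.166 and 0.104.

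The promoters of 3 of these falling genes are shown because they hold the letters that interferon-activated factors of the STAT and IRF families are known to read, 2 copies of GAAA parted by 2 bases of any kind, on either strand. The sequences are those of RefSeq on GRCm38.p6, 250 bases before and 50 after the start that table uses, 5′ to 3′ on the gene's strand, with the matches in capitals. They lie at chr19:34583279-34583578 for Ifit3 and chr19:34607707-34608006 for Ifit3b, both on the plus strand, and at chr5:92348840-92349139 for Cxcl10 on the minus strand. For Cxcl10 that start is the first base of the gene as given above, and for Ifit3 and Ifit3b it lies 410 and 427 bases inside the span of the gene, so that these windows are not upstream of the whole gene.
Ifit3: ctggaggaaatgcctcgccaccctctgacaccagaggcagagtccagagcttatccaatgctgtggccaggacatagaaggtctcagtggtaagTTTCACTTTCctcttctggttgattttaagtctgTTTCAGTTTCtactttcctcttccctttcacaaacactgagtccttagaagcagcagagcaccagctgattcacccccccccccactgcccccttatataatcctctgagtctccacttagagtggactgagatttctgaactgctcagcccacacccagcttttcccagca
Ifit3b: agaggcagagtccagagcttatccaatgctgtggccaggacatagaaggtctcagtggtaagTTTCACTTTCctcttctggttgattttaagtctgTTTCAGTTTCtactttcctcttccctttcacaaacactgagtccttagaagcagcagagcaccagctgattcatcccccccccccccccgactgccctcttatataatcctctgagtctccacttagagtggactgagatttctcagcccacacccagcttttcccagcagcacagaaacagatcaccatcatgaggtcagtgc
Cxcl10: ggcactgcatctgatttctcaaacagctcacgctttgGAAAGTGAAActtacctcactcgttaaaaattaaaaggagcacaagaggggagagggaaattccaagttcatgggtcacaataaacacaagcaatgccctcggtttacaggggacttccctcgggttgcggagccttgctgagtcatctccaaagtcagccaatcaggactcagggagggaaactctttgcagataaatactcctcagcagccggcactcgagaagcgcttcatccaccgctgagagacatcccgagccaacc
In Ifit3 the 2 matches begin 156 and 122 bases before that start, and in Ifit3b, whose copy of the same stretch is shifted, 188 and 154, all on the opposite strand. The match in Cxcl10 begins 213 bases before its start. Of the 6 falling genes that had a promoter there, 3 held the motif, of the 22 list members that were not called 16 did, and of 11352 tested genes with a promoter 452 (3.98%) did. A match is a description of the sequence only.

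Antigen presentation genes lay lower, with calls for class I and none for class II. Of 22 genes of MHC class I presentation 3 fell, with a median of −0.51, where 2.03% of all tested genes fell. H2-Q6 read 12.77, 11.92 and 12.26 without tumour and 10.55, 10.81 and 11.17 with it and fell by 1.47 (adjusted p = 0.0176). H2-T22 and Tapbpl, a peptide editor, had log2 fold changes of −1.01 and −0.71, and reads of H2-Q and H2-T genes may be shared between copies. The count was 14 on omission of tumour-free replicate 2, 5 for replicate 3, 0 for replicate 1, and 0, 0 and 1 for tumour-bearing replicates 1, 2 and 3. Among 14 genes of class II presentation 0 were called, with a median of −0.69. Cd74, the invariant chain, read 18.14, 18.02 and 19.14 without tumour and 17.34, 17.27 and 17.14 with it, with every tumour-bearing sample below the tumour-free ones, and did not pass (difference −1.19, adjusted p = 0.071). On omission of tumour-free replicate 2, 6 of the 14 were called lower. Of 13 costimulatory and checkpoint ligands, Cd40 fell by 0.80 (adjusted p = 0.0375, up to 0.197 on omission of tumour-free replicate 1 or of any tumour-bearing replicate) and Cd276, which tumour epithelium also makes, rose by 2.35 (held throughout), and Cd80 and Cd86 differed by −0.14 and −0.31 (adjusted p = 0.753 and 0.454).

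Genes of sterol and fatty acid synthesis rose in part, 6 of 27 with 0 falling and a median of 0.50. Sqle, which commits squalene to sterols, read 8.33, 8.54 and 7.86 without tumour and 9.97, 10.40 and 9.86 with it and rose by 1.83 (SE 0.25, adjusted p = 0.00518, held throughout). Cyp51 and Mvd, enzymes of sterol synthesis, rose by 1.14 and 0.94, and Fasn, the fatty acid synthase, by 1.17 (adjusted p = 0.0193, 0.0401 and 0.0222). The list held 2, 2 and 3 calls on omission of tumour-bearing replicates 1, 2 and 3, and 4, 10 and 9 on omission of tumour-free replicates 1, 2 and 3. The calls of Cyp51, Mvd and Fasn ended on omission of any tumour-bearing replicate (adjusted p up to 0.12, 0.216 and 0.113). Hmgcs1, an early enzyme of the pathway, differed by 0.22 (adjusted p = 0.616). Abca1, which exports cholesterol, read 13.05, 11.99 and 13.17 without tumour and 14.09, 13.83 and 13.64 with it and differed by 1.11 without passing (adjusted p = 0.0998). Tgfbr1, the type I TGF-beta receptor, was the 1 of 30 genes of Notch, TGF-beta and BMP signalling that rose, by 0.83 (adjusted p = 0.0263), a call that ended on omission of tumour-free replicate 1 or of any tumour-bearing replicate (up to 0.166), and Fosl1 the 1 of 24 immediate early genes, by 1.10 (adjusted p = 0.0425), a call kept on omission of tumour-free replicate 2 and ended by each other omission.

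Other lists held 0 calls: LXR and cholesterol efflux (18 genes tested, median 0.34), iron and haem recycling (22, 0.02), inflammasome (12, −0.12), glycolysis and hypoxia (28, 0.25), respiratory chain subunits (36, −0.14), cytosolic ribosomal proteins (41, 0.02), cell cycle (43, 0.36), stress and heat shock (19, 0.08), eicosanoid synthesis (20, 0.13) and erythroid and platelet genes (11, 0.48). Under median centring the medians of ribosomal, eicosanoid, iron and stress genes lay below 0. Of the cell cycle genes 37 of 43 differed upwards, and 12 were called higher on omission of tumour-free replicate 2, as were 2559 of all 14561 tested genes. Mki67, a proliferation marker, read 9.60, 9.65 and 10.86 without tumour and 10.48, 10.82 and 10.87 with it, with tumour-free replicate 3 level with the tumour-bearing samples (difference 0.69, adjusted p = 0.31). Fth1, a ferritin subunit, and Hmox1, which breaks down haem, differed by 1.27 and 0.32 (adjusted p = 0.246 and 0.578).

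**Figure D4:**
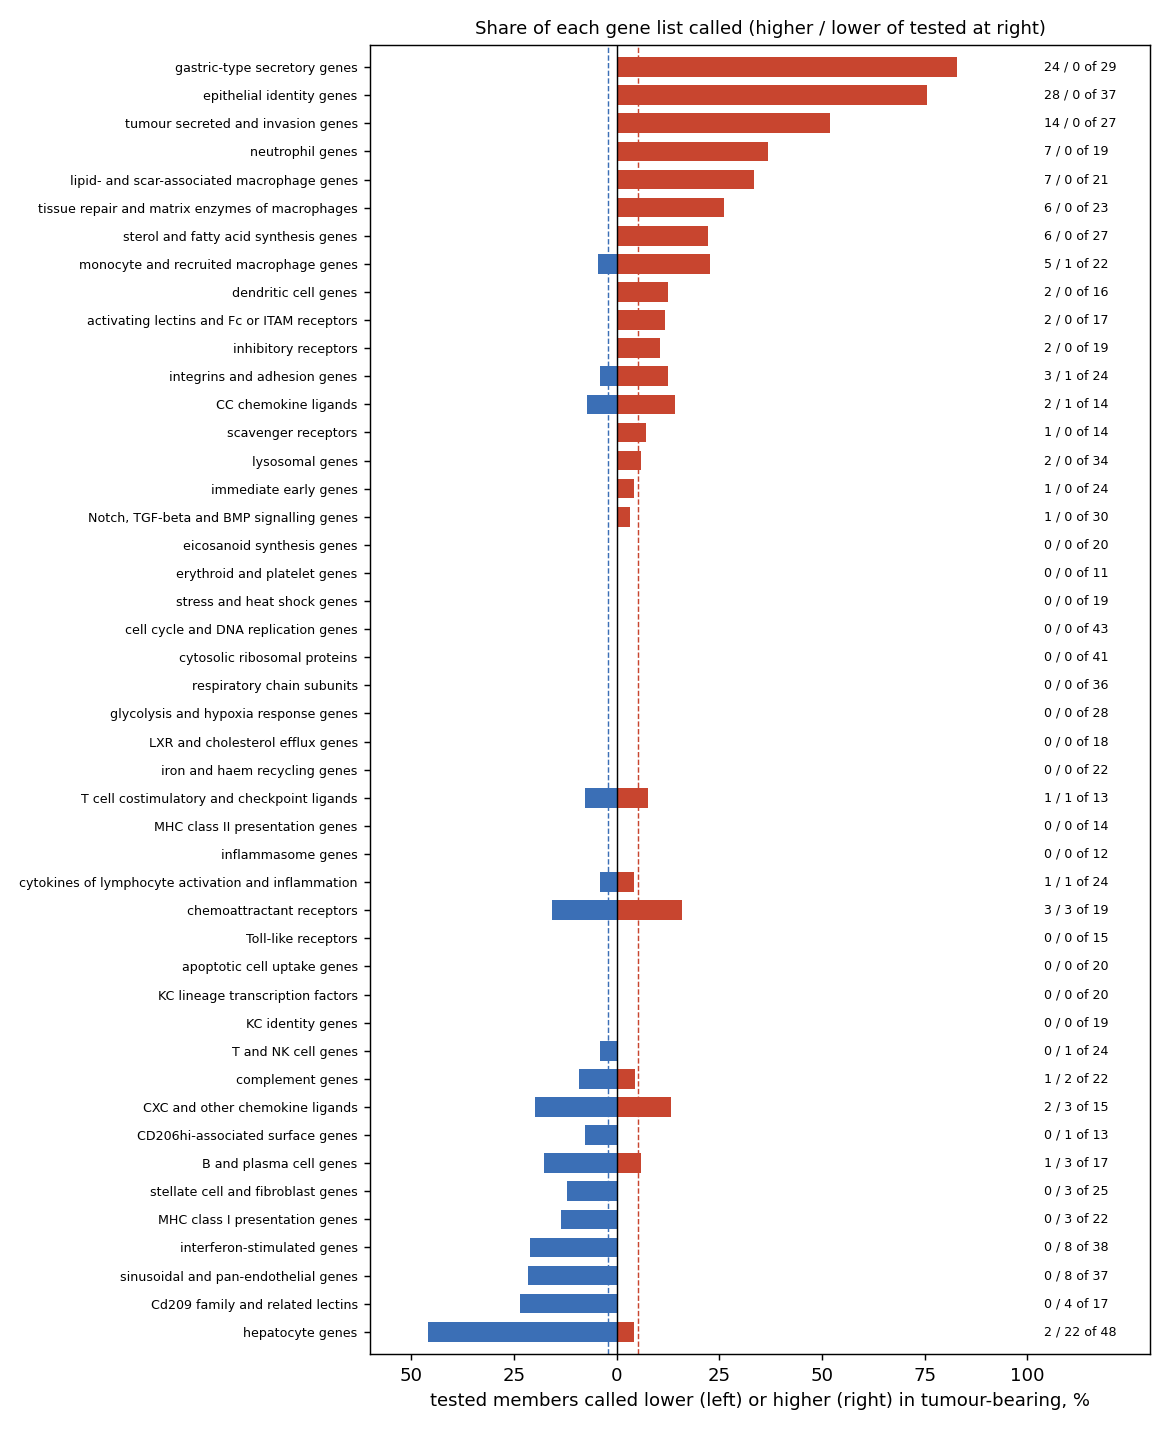
Bars give the percentage of tested members of each gene list that were called higher (red, to the right) or lower (blue, to the left) in tumour-bearing TIM4+CD206hi KCs, with the counts at the right, and dashed lines the 5.21% higher and 2.03% lower over all tested genes. Epithelial lists stand at the top with 24 of 29 and 28 of 37, and hepatocyte genes at the bottom with 22 of 48 lower.

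Transcripts of hepatocytes fell. Of 48 tested, 22 fell and 2 rose, with a median of −1.34, and the 2 that rose were Arg1 and Apob. Car3 (chr3:14863538-14872381), carbonic anhydrase 3, read 11.44, 12.60 and 10.78 without tumour and 7.30, 7.64 and 7.71 with it and fell by 4.06 (SE 0.44, adjusted p = 0.00162), the largest fall among called genes. Upp2, Inmt and Cyp2c29, enzymes of nucleoside, methyl and drug metabolism, had log2 fold changes of −3.78, −3.10 and −3.05. Alb, which encodes serum albumin, read 13.24, 12.88 and 13.98 without tumour and 11.42, 10.90 and 11.61 with it and fell by 2.06 (adjusted p = 0.00891). Car3, Upp2, Inmt, Cyp2c29 and Alb held throughout, and at least 16 of the list fell without any 1 library. The mean of the list was 9.61, 9.76 and 9.84 without and 8.73, 8.62 and 8.61 with tumour. The groups were apart by more than the spread within either.

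Endothelial transcripts fell as well, 8 of 37 with 0 rising and a median of −0.72. Ehd3 (chr17:73804841-73832093), an endocytic protein of the sinusoid, read 15.99, 15.92 and 15.89 without tumour and 14.08, 14.29 and 14.50 with it. The tumour-free samples agreed closely and the groups were far apart, with a difference of −1.64 (SE 0.17, adjusted p = 0.00119). Aqp1, a water channel, Gpr182, a receptor of sinusoidal endothelium, and Gpihbp1, which holds lipoprotein lipase, had log2 fold changes of −1.03, −0.94 and −1.13. Those of Clec4g, Oit3 and Dpp4 were −0.90, −1.25 and −1.09. Genes outside the lists that endothelium makes fell too, and all but Cd300lg were named only after their values were seen. Their log2 fold changes were −1.63 for Cd300lg, −1.45 for Cavin2, −1.55 for Timp3, −1.32 for Dnase1l3, −1.11 for Mmrn2 and −0.98 for Tspan7. The calls of the last 5 of these ended on omission of tumour-free replicate 1 or tumour-bearing replicate 1. Icam2, an adhesion molecule of endothelium, fell by 1.09 (adjusted p = 0.00597), a call that ended on omission of tumour-bearing replicate 1 (adjusted p = 0.0513). Ehd3 and Cd300lg held throughout, and of the genes of the list other than Ehd3 every call ended on omission of some tumour-bearing replicate. The list held 19 falls on omission of tumour-free replicate 2, 10 for replicate 3, 2 for replicate 1 and 1 for each of the tumour-bearing replicates. The CD206hi-associated surface genes, of which several are endothelial, moved beside this list, and its part in their values was not tested.

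Of 25 genes of stellate cells and fibroblasts 3 fell, Dcn, a matrix proteoglycan, Colec11 and Lrat, which stores vitamin A as retinyl esters, with −1.67, −1.82 and −1.76 (adjusted p = 0.00493, 0.029 and 0.0154), and Col1a1 differed by 0.95 (adjusted p = 0.399). Among B cell and plasma cell genes 3 of 17 fell, the antigen receptor subunits Cd79a and Cd79b and the IgE receptor Fcer2a, with −1.08, −0.99 and −1.21, and Sdc1 rose with the epithelial genes. Of 24 T and NK cell genes 1 fell, Ccl5, and the count was 7 with quantile normalization, 7 on omission of tumour-free replicate 2, 3 for replicate 3 and 0 for each other omission. Cd3e read 7.93, 7.91 and 8.02 without tumour and 7.26, 7.10 and 7.30 with it, with each tumour-bearing sample below the tumour-free ones (difference −0.73, adjusted p = 0.0661). The calls of the B cell genes and of Colec11 and Lrat ended on omission of tumour-bearing replicate 1 or 2. Those of Cd79a, Cd79b and Colec11 ended also for tumour-bearing replicate 3, and those of Fcer2a, Colec11 and Lrat for tumour-free replicate 1, while Dcn held throughout. Of 16 dendritic cell genes 2 rose, Itgax, which encodes CD11c, by 1.60 and Cd24a, and the defining genes Zbtb46 and Flt3 differed by 0.15 and 0.89 (adjusted p = 0.883 and 0.396). Of 22 complement genes 2 fell, Mbl2, a lectin made by hepatocytes, and C1s1, a protease of the pathway's first component, with log2 fold changes of −1.83 and −1.17, and Itgax rose. The calls of Mbl2 and C1s1 ended on omission of tumour-free replicate 1 or 3 or of tumour-bearing replicate 1 or 2, and that of C1s1 also for tumour-bearing replicate 3 (up to 0.0992 and 0.131). C1qa and C1qb, which KCs make, differed by −0.36 and −0.46 (adjusted p = 0.434 and 0.215). Integrin genes Itga3 and Itga2, laminin and collagen receptors of epithelium, rose by 3.23 (held throughout) and 2.54 (up to 0.0795 on omission of tumour-free replicate 1 or tumour-bearing replicate 1 or 2), with 3 of 24 adhesion genes higher and 1 lower, and Colec12 was the 1 of 14 scavenger receptor genes that rose, by 0.94 (adjusted p = 0.0205, up to 0.131 on omission of tumour-free replicate 1 or of any tumour-bearing replicate).

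The same genes in TIM4+CD206+ KCs were set beside these, as differences within a table normalized on its own and with no test between the subsets. Spp1 differed by 3.95 there and 3.96 here, Krt19 by 5.25 and 5.36, and Ehd3 by −1.66 and −1.64, with groups that overlapped there for Ehd3. Among other epithelial genes, Epcam differed by 1.43 there and 5.08 here, Npnt, a matrix ligand of integrins, by 1.47 and 5.14, and Cx3cl1 by 0.58 and 3.06. The median of the epithelial list was 1.12 there and 3.12 here, and that of the gastric-type list 2.33 and 4.58. Because genes with fewer reads are drawn more strongly to their mean, and the tables were transformed separately, such gaps are not comparable in size.

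Among macrophage genes the differences were 3.23 there and 3.65 here for Gpnmb, 2.45 and 1.69 for Arg1, 2.79 and 1.63 for Cd63 and 2.22 and 1.22 for Ccl9. For sterol and fatty acid genes the values were 0.11 there and 1.17 here for Fasn and 1.03 and 1.83 for Sqle, with list medians of 0.10 and 0.50. Of genes that fell here, Ackr4 differed by −0.27 there and −1.87 here, Icam2 by −0.16 and −1.09, and Cavin2 by 0.21 and −1.45. Their means there were 4.30 without and 4.03 with tumour for Ackr4, 11.57 and 11.41 for Icam2, and 6.81 and 7.02 for Cavin2. The tumour-free means here were 9.80, 12.86 and 13.68. Ackr4 and Cavin2 thus lay lower there than here, and the part of that level in the gaps was not tested. Interferon-stimulated genes had list medians of −0.67 there and −0.81 here, hepatocyte genes −1.32 and −1.34, and neutrophil genes 1.72 and 1.73.

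**Figure D5:**
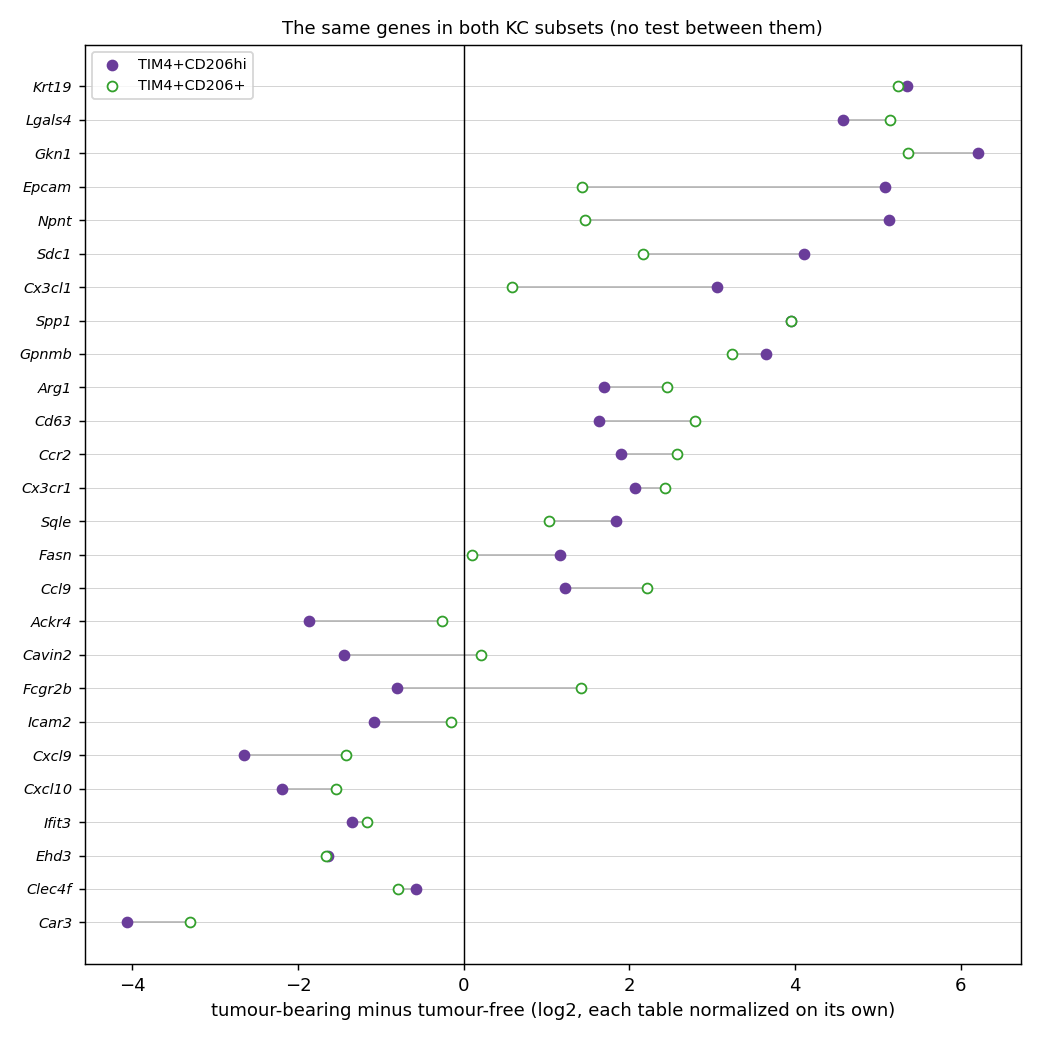
For 26 genes, filled points give the tumour-bearing minus tumour-free difference in log2 in TIM4+CD206hi KCs and open points that in TIM4+CD206+ KCs, joined by a line, and each table was normalized on its own. The points lie together for Spp1, Krt19 and Ehd3, apart for Epcam, Npnt and Cx3cl1, and on opposite sides of 0 for Cavin2 and Fcgr2b. In TIM4+CD206+ KCs the groups overlapped for Cavin2, at means of 6.81 without and 7.02 with tumour.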

How the data were processed

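KCs were sorted from mouse livers and libraries were made from 2 ng of total RNA with RNA integrity numbers of 9.4 to 10, per the labels, by 12 cycles of cDNA and 8 of library amplification. The submitters' processing notes name STAR 2.7.10a, HTSeq, DESeq2 and the build mm10. The deposited values are regularized log2 values made by the authors with DESeq2 from gene counts (column names say TPM, but the values are on a log2 scale and are not TPM), and the tables of the 2 KC subsets were transformed separately. Neither read totals nor counts can be had from them, and 5 columns of other mice were not used.

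A gene was tested when its value was at least log2 of 10 in 3 samples. Tumour-bearing and tumour-free groups, taken from sample titles, were set against each other in limma (version 3.58.1, R version 4.3.3), which fitted a trend of variance on mean, and p-values were two-sided and adjusted by Benjamini-Hochberg over all tested genes, with 0.05 as the threshold. Scripts used Python 3.11.15, numpy 2.4.6 and matplotlib 3.10.9, and the fit was tested on simulated data. Genes were named by rule: the 10 largest rises and falls without overlap, the 10 smallest p in each direction, up to 4 members by p and the first 2 of each of 47 lists, genes of the sort and genes the study discusses. A further 32 genes, of which the rule had also named Cd300lg, and Ifitm3 were picked with their values in view. Members and lists were chosen with earlier results of these data known.

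Alternatives were no filter, a mean of at least log2 of 50, the replicate number as a block, no trend, median centring, quantile normalization, omission of each sample, and, chosen after seeing the data, removal of smooth trends with GC content and gene length. Same-numbered samples of the groups correlated at −0.05, −0.13 and −0.05, which gave no sign that the numbers pair them. With so few samples per group this cannot exclude pairing. Reads of near-identical genes (Ifit3 and Ifit3b, Lgals4 and Lgals6, H2-Q and H2-T genes, Mcpt1 and Mcpt2) may be shared, and their values are uncertain. Some items are not reported here. Positions and promoters are from RefSeq on GRCm38.p6.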

Additional observations from a re-analysis of the deposited data

Results flagged for a closer look

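Among 304 tested genes followed by name, 3 (0.987%) had every tumour-bearing sample on one side of every tumour-free sample in TIM4+CD206hi KCs and on the opposite side in TIM4+CD206+ KCs, as did 123 of all 14561 tested genes (0.845%). Fcgr2b, the inhibitory Fc receptor, which sinusoidal endothelium also makes, read 15.19, 14.75 and 15.44 without tumour and 14.26, 14.44 and 14.27 with it in TIM4+CD206hi KCs, a difference of −0.81, against 1.42 in TIM4+CD206+ KCs. Lrp1, a scavenger receptor for lipoproteins and protease complexes, read 14.49, 14.10 and 14.13 without tumour and 14.95, 14.68 and 14.85 with it, a difference of 0.59 against −0.20. S100a16, a calcium-binding protein, read 12.62, 12.15 and 12.77 without tumour and 11.72, 12.07 and 11.85 with it, a difference of −0.63 against 0.89. None passed the limma test in TIM4+CD206hi KCs (adjusted p = 0.0665, 0.104 and 0.135), and the difference between the subsets was not tested, since their tables were normalized apart.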

How the results depend on the processing

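The count of 1053 genes changed fell to 600 with the stricter filter on mean values, and ranged from 579 to 3634 with 1 sample left out, the highest on omission of tumour-free replicate 2. Every call of the 1053 was among the 3634, and 574 of the 1053 were called on omission of tumour-bearing replicate 1. The count was 909 with the replicate block, 941 with no filter, 1070 with no trend, 1091 with median centring, 1182 with quantile normalization and 1091 after GC content and length trends were removed. The replicate block ended 27 of 144 followed calls and gained 3, and whether the replicate numbers pair the samples is not known. Higher genes made up 72.0% of calls, 56.2% with quantile normalization, 80.6% on omission of tumour-free replicate 1 and 83.4% to 84.5% on omission of a tumour-bearing replicate. No call changed sign in any alternative, and most alternatives could not reverse a gene whose groups do not overlap. Of 160 followed genes without a call, 62 gained one on omission of tumour-free replicate 2. The cause of these shifts was not tested. Depth is unknown, and the spread among 3 tumour-free samples limits which small differences pass.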

Other observations

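Other genes of gastric-type epithelium, picked with their values in view, lay far apart between the groups. Agr2, a disulphide isomerase of mucus-making cells, read 4.01, 4.12 and 4.06 without tumour and 9.05, 9.63 and 9.13 with it, and Cldn18, a tight junction protein of stomach, read 3.77, 3.77 and 3.81 without tumour and 8.43, 8.32 and 8.97 with it. The log2 fold changes with limma were 5.21 and 4.79. The trefoil peptides Tff2 and Tff3 differed by 5.18 and 4.37. Muc5ac, the gel-forming mucin of the gastric surface, read 3.15, 3.53 and 3.19 without tumour and 6.52, 5.26 and 8.48 with it. Its tumour-bearing samples were widely spread, from low tumour-free values, and the difference was 3.46 (SE 0.72, adjusted p = 0.0311 with limma). Tgtp2, an interferon-induced GTPase outside the list of interferon-stimulated genes described above, read 12.62, 11.31 and 12.95 without tumour and 9.93, 10.11 and 10.59 with it, with a difference of −2.08 (adjusted p = 0.0284, a call kept on omission of tumour-free replicate 2 and ended by each other omission).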
